A study of Homo sapiens with 28 samples.

Results

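BAY1238097 is a small-molecule inhibitor of the BET bromodomains, and the comparison described here is that of its higher dose, 468 nM, with its lower dose, 75 nM, after 4 h. The arrays were chosen by dose and time alone, from the sample titles: 5 arrays of cells given 468 nM and 5 of cells given 75 nM, 10 of the 28 arrays in the series. Both groups were CHL-1, an established human melanoma cell line. The cells grew in DMEM that held fetal calf serum, were plated 1 day ahead, and received the compound at either dose. The submitters describe 75 nM as the IC50 and 468 nM as the IC90 of the compound in these cells. The 4 arrays of cells given the solvent DMSO for 4 h, and the arrays of the same doses at 24 h (5 for 468 nM and 5 for 75 nM), were used for context. All 28 arrays, among them 4 of cells given DMSO for 24 h, also entered the fit. They shared 1 estimate of the spread, which the p-values at 4 h rest on, and decided which genes were tested. One cell line stands behind every value.

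BET proteins, BRD2 and BRD3 among them, bind acetylated histones and help to bring P-TEFb, the kinase CDK9 with a cyclin T, to genes so that RNA polymerase II leaves its pause near the promoter. The small nuclear particle 7SK, with the proteins HEXIM1, HEXIM2, LARP7 and MEPCE, holds P-TEFb in an inactive form. BET inhibitors are known for lowering MYC in many blood cancers and for raising HEXIM1, which is used as a marker of target engagement.

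All levels below are log2 of the deposited intensity, and all differences are log2 of 468 nM minus 75 nM with their standard error. A gene was called when its adjusted p (limma over all arrays and 6 group means, Benjamini-Hochberg over 9285 tested genes) was under 0.05. Of those 9285 genes, 238 (2.56%) were called: 133 (1.43%) were lower at 468 nM and the others (1.13%) were higher. The sizes were moderate. The median absolute difference of the called genes was 0.667, 151 of them differed at least 1.5-fold, and 14 higher and 17 lower genes differed at least 2-fold. The 5 arrays of one dose lay wholly above or below the 5 of the other for 400 of all tested genes (4.31%), and 189 of those were called. When every array was shifted so that 8 common reference genes matched, the median of all genes moved by -0.118, to -0.123, and the split became 37 higher to 161 lower, so each direction below is relative to the distribution of its array.

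The correlation over all probe sets between arrays was 0.9392 to 0.9557 within the 468 nM group, 0.933 to 0.9542 within the 75 nM group and 0.9311 to 0.9559 between the groups. The first principal component of the 10 arrays (24.8% of the variance) kept arrays of one title-code set on the same side of 0, with the ranges of sets 2 and 4 overlapping, and the second (17.9%) separated the doses, at 9.0 to 13.4 for 468 nM and -13.1 to -5.71 for 75 nM.

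**Figure D1:**
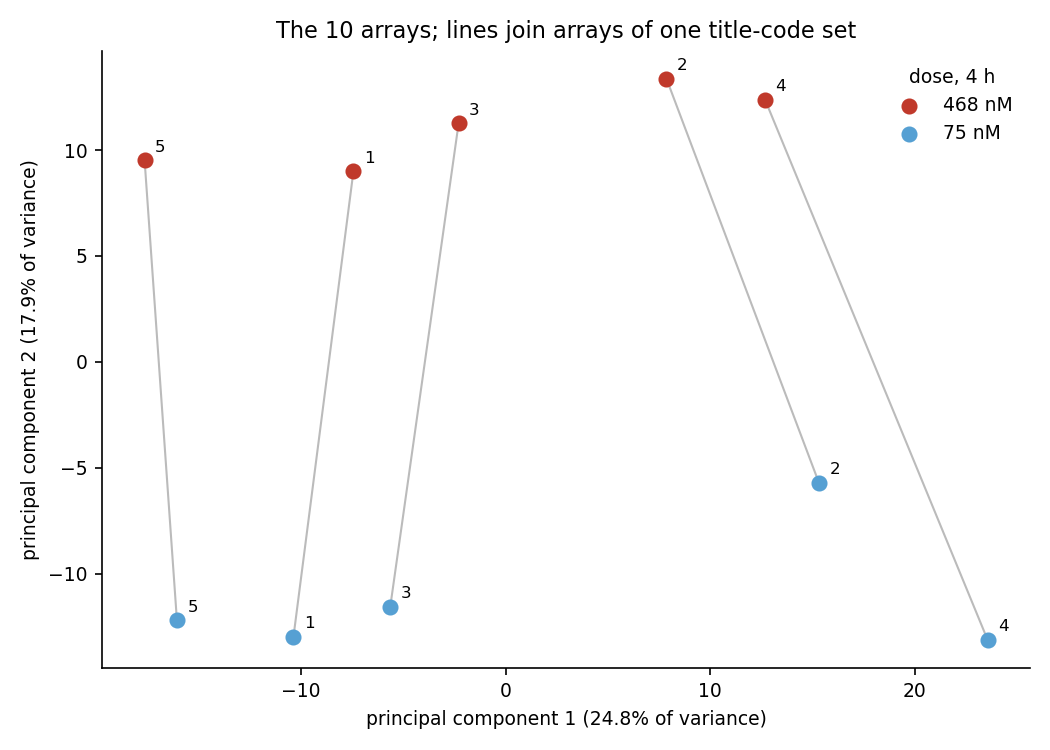
The 10 arrays on the first and second principal components of log2 intensity (percent of variance on the axes). Colours give the dose, numbers the title-code set, and grey lines join arrays of one set; each line runs from 468 nM at the top to 75 nM at the bottom, while the sets spread from left to right.

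The label melanoma was checked against melanocyte and neural crest markers. SOX10 averaged 8.88 ± 0.13 at 468 nM and 9.52 ± 0.15 at 75 nM (SD, n = 5 each), and PAX3, OCA2, S100B and NGFR were above a log2 value of 5 on all 28 arrays. MITF, the master regulator of pigment genes, was at 2.33 ± 0.41 at 468 nM and 2.78 ± 0.55 at 75 nM, and MITF, TYR, TYRP1, PMEL and MLANA exceeded 5 on no array. Of the markers of other cell types, 0 of 8 on the array for keratinocytes, 2 of 10 for fibroblasts, 1 of 9 for leukocytes and 0 of 9 for endothelium passed the filter on dim genes, and none of those tested was called. The log2 of the summed fibroblast markers ran from 7.64 to 8.80 at 468 nM and from 7.95 to 8.62 at 75 nM.

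**Figure D2:**
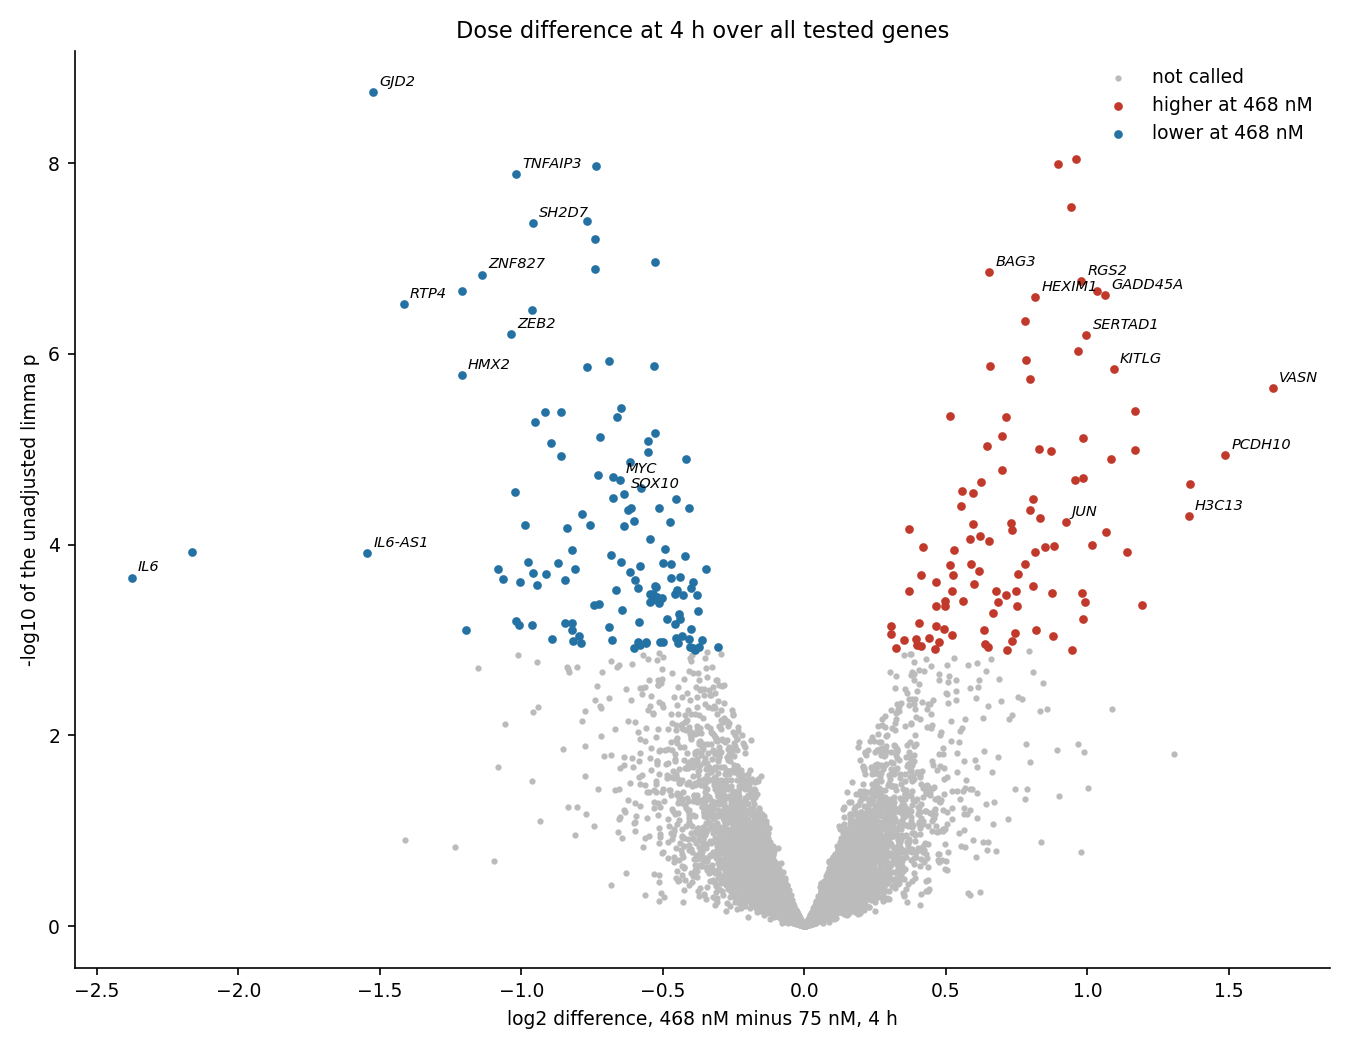
Each point is 1 of the 9285 tested genes, with the log2 difference of 468 nM minus 75 nM at 4 h on the x axis and -log10 of the unadjusted limma p on the y axis. The higher genes (red) and the 133 lower genes (blue) include HEXIM1 and GADD45A on the right and GJD2, TNFAIP3 and IL6 on the left.

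Among the transcription elongation genes, HEXIM1 was the one tested member called between the doses. HEXIM1 measured 8.57, 8.64, 8.88, 8.80 and 8.77 on the arrays at 468 nM, against 8.0, 7.96, 7.72, 7.93 and 7.96 at 75 nM. Every array at 468 nM was above every array at 75 nM, and the arrays given DMSO lay lower still, at 7.24, 7.14, 6.76 and 7.12. The dose difference was 0.82 ± 0.12, or 1.76-fold, with an adjusted p of 0.00013. Against DMSO, with which both doses share the same 4 arrays, the difference was 1.67 at 468 nM and 0.85 at 75 nM, so the level of this P-TEFb inhibitor climbed with dose.

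Of 23 tested genes of the BET and elongation list, HEXIM1 was the 1 higher gene and 0 were lower, beside 1.13% and 1.43% of all tested genes. The list's median difference was 0.04, beside -0.01 over all genes. BRD2, a BET protein, measured 10.38, 10.50, 10.50, 10.41 and 10.57 at 468 nM and 10.30, 10.48, 10.43, 10.37 and 10.32 at 75 nM. The groups overlapped, and the dose difference was 0.09 ± 0.07 (95% interval -0.06 to 0.24). Yet BRD2 stood above DMSO at both doses, by 0.58 at 468 nM and by 0.49 at 75 nM. CCNT2, a cyclin partner of CDK9, had the same form: 0.56 above DMSO at 468 nM and 0.54 at 75 nM, with a dose difference of 0.02 ± 0.10 (95% interval -0.18 to 0.22). CDK9 differed by 0.01 ± 0.09, CCNT1 by 0.17 (adjusted p = 0.354) and BRD3 by 0.08 ± 0.14. HEXIM2, the paralog of HEXIM1, differed by -0.67 but with an adjusted p of 0.171. The 14 probe sets of BRD2 did not give one direction: the brighter ones differed by 0.09 to 0.43 with 1 at -0.19, while of the dim ones 6 identical sets differed by -0.59 and 1 by 0.66.

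CCNT2 was 1 of 6 genes named because 75 nM was called against DMSO and the dose difference was among the smallest, with a 95% interval within 0.5 of 0. That choice used these values, so they are a description. The other genes were KLF5, a growth-linked transcription factor that differed from DMSO by -0.84 at 468 nM and -0.85 at 75 nM, SESN1, a stress-induced sestrin (0.72 at 468 nM and 0.68 at 75 nM), and SYVN1, a ubiquitin ligase of the endoplasmic reticulum (0.54 at 468 nM and 0.52 at 75 nM). TRMT61B, a mitochondrial tRNA methyltransferase, differed from DMSO by -0.48 at 468 nM and -0.51 at 75 nM. ZKSCAN1, a zinc-finger gene, was above it by 0.53 at 468 nM and 0.47 at 75 nM. All 6 were also called at 468 nM against DMSO, and their dose differences ran from 0.01 to 0.06.

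**Figure D3:**
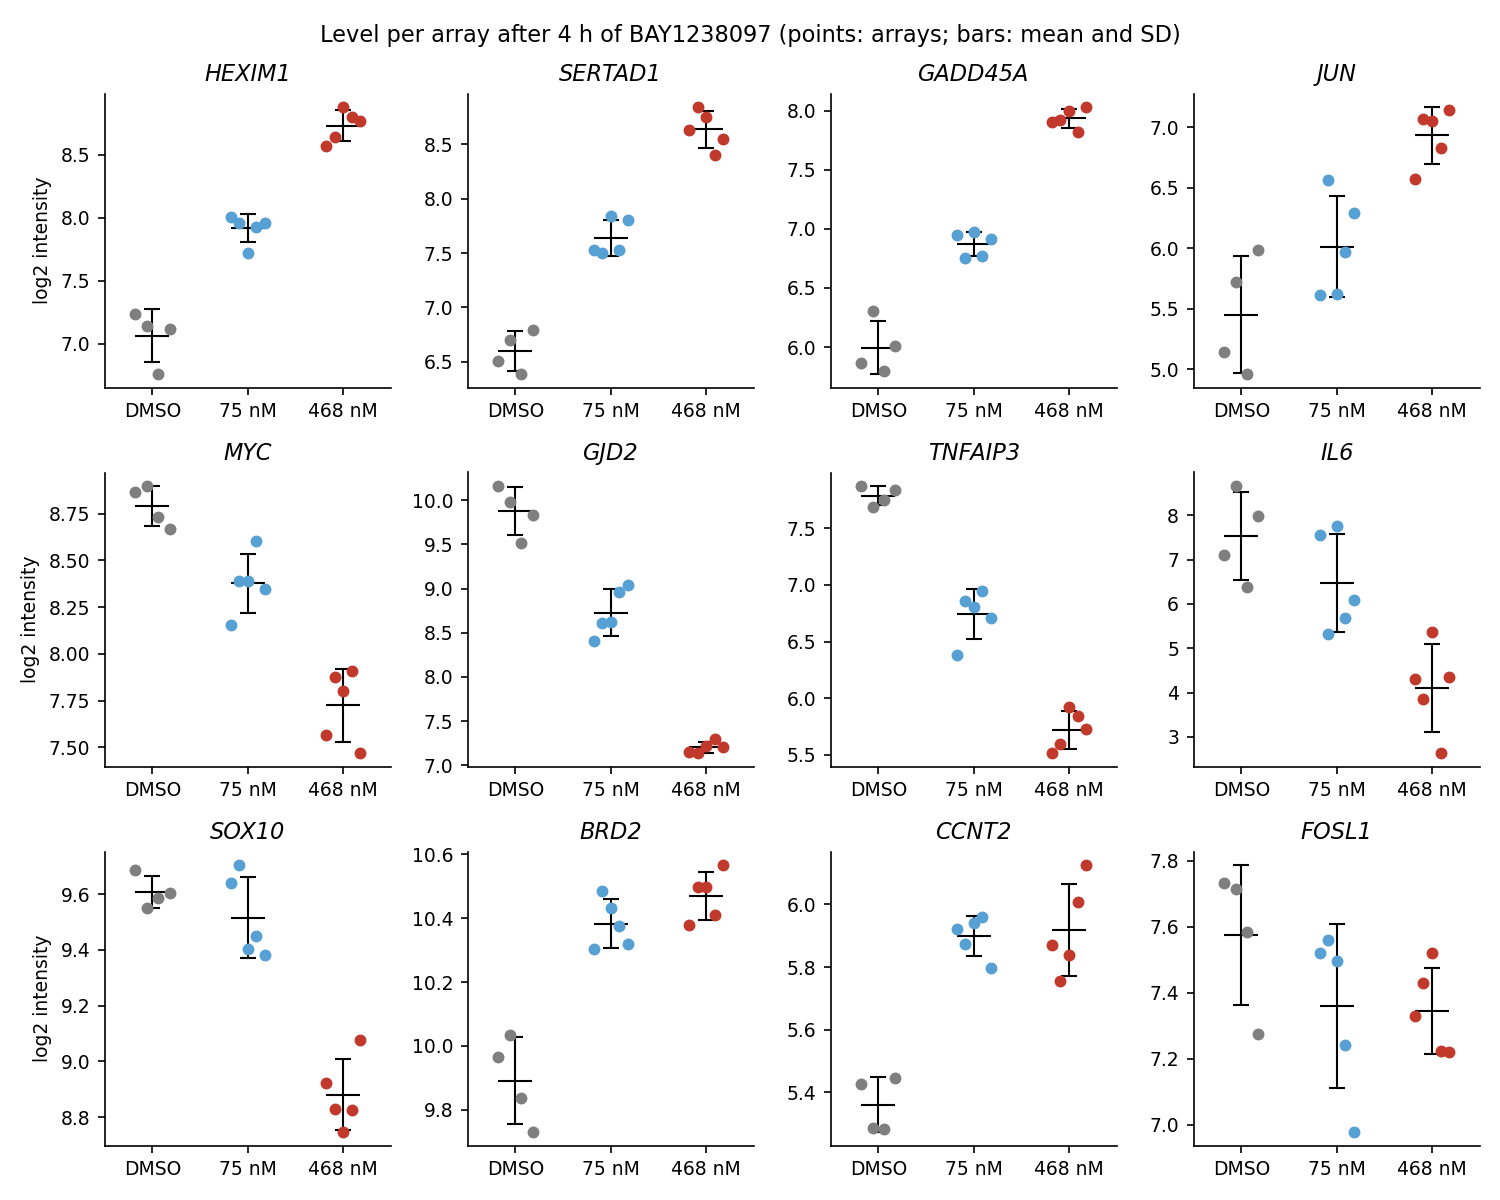
Log2 intensity on every array at 4 h for 12 genes, with DMSO (4 arrays), 75 nM (5) and 468 nM (5) from left to right; points are arrays, and black bars give the mean and SD. HEXIM1, SERTAD1 and GADD45A climb and GJD2, TNFAIP3 and MYC step down at both doses, SOX10 lies lower at 468 nM, and BRD2 and CCNT2 lie above DMSO at both doses. MYC at 75 nM was not called against DMSO.

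MYC, the growth-promoting transcription factor, was lower at the higher dose. It measured 7.57, 7.88, 7.80, 7.91 and 7.47 at 468 nM, against 8.15, 8.39, 8.39, 8.60 and 8.35 at 75 nM. All arrays at 468 nM lay below all at 75 nM, which in turn lay below the lowest DMSO array, at 8.67. The dose difference was -0.65 ± 0.13, or 1.57-fold lower, with an adjusted p of 0.00308. Against DMSO, MYC differed by -1.07 at 468 nM and by -0.41 at 75 nM, and the latter was not called (adjusted p = 0.222). MXD1, an antagonist that competes with MYC for its partner MAX, was higher by 0.75 ± 0.18 (adjusted p = 0.0188), although 1 array at 468 nM (6.27) lay below 1 at 75 nM (6.45). The MXD1 call ended without any 1 of 4 arrays (468 nM replicates 2, 3 and 4, and 75 nM replicate 1; adjusted p 0.0587 to 0.0671), and a second, dimmer MXD1 probe set gave 3.04 at 468 nM and 3.65 at 75 nM. Of the 9 tested genes of the MYC network, these 2 were called, beside 2.56% of all tested genes. TXNIP, a brake on glucose uptake that responds to the MYC relative MondoA, differed by 0.58 ± 0.17 and missed the threshold at an adjusted p of 0.0641; with the title-code set as a block it passed, at 0.0176. ARRDC4, a relative of TXNIP, differed by 0.37 with an adjusted p of 0.209.

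The genes of ribosome biogenesis, many of which are MYC targets, gave no call between the doses at 4 h, where 2.56% of all tested genes were called. Of 26 tested, 0 were called by limma and 2 were lower at an unadjusted p under 0.05, and their median difference was -0.05. The largest difference among them was that of the nucleolar factor RRS1 (-0.63, adjusted p = 0.0937), chosen for naming after its value was seen. With the block, with array weights, or in the fits of the 10 or the 14 arrays, 1 gene of this list passed, and 0 did when 1 array was left out.

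The NF-kB pathway carries signals of inflammation to a family of transcription factors, whose targets include cytokines and their own inhibitors. Its clearest dose difference was in TNFAIP3, the ubiquitin-editing enzyme A20 that shuts the pathway off. The promoters of TNFAIP3 and IL6 are shown because both genes were lower at 468 nM and both windows hold matches to the NF-kB consensus. The sequences are RefSeq's (GRCh38.p14), 250 bases before to 50 after the start, on the strand of the gene. TNFAIP3 lies at chr6:137867009-137867308 on the plus strand, and IL6 at chr7:22726950-22727249 on the plus strand. Capitals mark the NF-kB matches and, in TNFAIP3, the motif CACGTG.
TNFAIP3: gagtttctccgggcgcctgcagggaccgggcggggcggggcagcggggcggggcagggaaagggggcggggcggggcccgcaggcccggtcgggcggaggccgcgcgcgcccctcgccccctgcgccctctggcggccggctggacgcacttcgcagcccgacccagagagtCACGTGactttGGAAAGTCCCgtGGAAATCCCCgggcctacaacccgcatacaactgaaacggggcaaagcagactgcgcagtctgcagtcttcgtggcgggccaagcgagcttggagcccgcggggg
IL6: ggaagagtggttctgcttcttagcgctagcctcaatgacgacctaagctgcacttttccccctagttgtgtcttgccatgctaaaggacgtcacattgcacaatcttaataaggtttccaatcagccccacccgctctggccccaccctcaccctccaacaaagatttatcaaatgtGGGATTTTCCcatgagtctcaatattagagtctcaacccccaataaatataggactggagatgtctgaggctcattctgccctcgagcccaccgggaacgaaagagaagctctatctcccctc
The TNFAIP3 window held 2 matches, which begin at -67 and -55 and read on the minus strand, and the IL6 window held 1, at -73 on the plus strand. Both strands were searched, and none of the matches overlapped another motif. The consensus occurred in 5.72% of all 27305 promoters in the table and 6.39% of the 7506 of tested genes, in 11 of the 86 with a promoter there among the genes higher at 468 nM (12.79%) and in 8 of 109 among the lower ones (7.34%). CACGTG, at -78 in TNFAIP3, occurred in 7.43% of all promoters and in 10.46% of those of tested genes. A match describes the letters and says nothing of binding.

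TNFAIP3 measured 5.51, 5.60, 5.92, 5.84 and 5.73 at 468 nM and 6.38, 6.86, 6.81, 6.95 and 6.71 at 75 nM. The groups did not overlap, and the DMSO arrays were higher than both, between 7.69 and 7.88. The difference was -1.02 ± 0.13, or 2.03-fold lower, with an adjusted p of 2.4e-05. IL6, an inflammatory cytokine, measured 4.31, 3.86, 5.36, 2.63 and 4.35 at 468 nM and 7.55, 5.33, 7.76, 5.68 and 6.08 at 75 nM. Here 1 array at 468 nM (5.36) lay just above the lowest at 75 nM (5.33), and the spread within each dose was wide. The difference was -2.38 ± 0.55 (adjusted p = 0.0156), and it no longer passed without the filter on dim genes (0.0546). Leaving out 468 nM replicate 4 (0.062), 75 nM replicate 1 (0.0558) or 75 nM replicate 3 (0.0602) also ended the call. IL6 passed the filter on dim genes only through arrays of groups where it was higher, so its test is not support for a change.

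CSF1, the macrophage growth factor, was the other called cytokine of the 2 that passed the filter. It measured 5.33, 5.10, 5.42, 5.53 and 5.52 at 468 nM and 6.14, 6.21, 6.05, 6.28 and 6.13 at 75 nM. The doses were fully separated, with a difference of -0.79 ± 0.16 and an adjusted p of 0.00557. Of the 14 tested genes of the NF-kB list, 3 were lower (TNFAIP3, IL6 and CSF1) and 1 was higher, and the median was -0.12. Of all tested genes, 1.43% were lower and 1.13% higher, and the test of IL6 is limited by the filter as described above. The higher gene was NFKBIE, an inhibitor that keeps NF-kB in the cytoplasm, at 0.75 ± 0.19 (adjusted p = 0.0234); that call ended without any 1 of 5 arrays (468 nM replicates 2, 4 and 5, and 75 nM replicates 1 and 3), at adjusted p-values of 0.0567 to 0.0924. The main inhibitor NFKBIA differed by -0.10 (adjusted p = 0.891), and the subunits NFKB1, NFKB2, REL and RELA gave no call, at -0.30, 0.20, -0.17 and -0.11. Most cytokines of the list, CXCL8 and CCL2 among them, were below the filter on dim genes.

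A non-coding neighbour moved with IL6. IL6-AS1, an antisense RNA whose gene overlaps IL6, measured 3.14, 3.98, 4.73, 3.87 and 4.62 at 468 nM and 5.95, 5.47, 5.99, 5.20 and 5.44 at 75 nM. The doses did not overlap, and the difference was -1.54 ± 0.34 (adjusted p = 0.0104). STEAP1B-AS1, an antisense RNA gene nearby, differed by -1.01 ± 0.26 (adjusted p = 0.0343), and its neighbour STEAP1B by -0.10 (0.973). Leaving out any 1 of 8 arrays (all but 75 nM replicates 1 and 4) ended the STEAP1B-AS1 call, at adjusted p-values of 0.0515 to 0.115. IL6-AS1 and STEAP1B-AS1 passed the filter on dim genes only through arrays of groups where they were higher. Their tests are not support for a change. Whether these probe sets keep the strands of IL6 and IL6-AS1 apart is not given in the sources used here.

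The JUN family was higher at 468 nM while the FOS family gave no call. JUN and FOS proteins pair to form AP-1, a transcription factor that responds to growth signals and stress. The JUN promoter is shown because it carries the element TGANNTCA that AP-1 proteins bind, at -67, in capitals; it is RefSeq's (GRCh38.p14) at chr1:58783998-58784297 on the minus strand.
JUN: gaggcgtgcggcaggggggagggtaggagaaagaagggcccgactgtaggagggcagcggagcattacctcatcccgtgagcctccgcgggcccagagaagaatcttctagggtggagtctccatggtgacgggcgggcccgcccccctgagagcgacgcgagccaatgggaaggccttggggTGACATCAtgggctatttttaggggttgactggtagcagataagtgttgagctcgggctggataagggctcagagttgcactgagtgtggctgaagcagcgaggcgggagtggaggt
TGANNTCA, which reads the same on both strands and overlapped no other motif searched here, occurred in 11.79% of all promoters in the table, in 8.22% of those of tested genes, in 9.30% of those of the higher genes and in 11.93% of those of the lower genes.

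JUN measured 6.57, 7.07, 7.05, 6.83 and 7.15 at 468 nM, against 5.61, 6.56, 5.62, 5.97 and 6.29 at 75 nM. The lowest array at 468 nM stood just above the highest at 75 nM. The difference was 0.92 ± 0.19 with an adjusted p of 0.00637. JUNB, a relative that is also an early response gene, was higher by 0.68 ± 0.16 (adjusted p = 0.0188) and JUND, the most constant member in many cells, by 0.64 ± 0.17 (0.037), each with no overlap between doses. All 3 JUN genes thus passed in the main fit, and JUN kept the call in every alternative run. Under the shift by reference genes neither JUNB (adjusted p = 0.0987) nor JUND (0.188) was called. Without the filter on dim genes neither was (0.0767 and 0.131). JUNB lost the call without 75 nM replicate 3 (adjusted p = 0.0602), and JUND without any 1 of 8 arrays (all but 75 nM replicates 3 and 4; 0.0544 to 0.0952). FOS differed by 0.26 ± 0.29, FOSB by 0.37 and FOSL1 by -0.01 ± 0.14, and FOS ranged from 7.33 to 8.21 at 468 nM and from 6.98 to 8.14 at 75 nM.

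Other immediate early genes went both ways. SERTAD1, a regulator of CDK4 and E2F, measured 8.63, 8.84, 8.75, 8.41 and 8.55 at 468 nM and 7.53, 7.50, 7.84, 7.53 and 7.81 at 75 nM. The doses were far apart, by 1.0 ± 0.15 (adjusted p = 0.00026), and SERTAD1 was above DMSO by 2.04 at 468 nM and by 1.05 at 75 nM. IER5, a stress-induced partner of heat shock factor 1, was higher by 0.83 ± 0.17 (adjusted p = 0.00589), and IER2 by 0.64 ± 0.17 (0.046). The zinc-finger factors KLF6 and KLF11 were lower, by -0.61 ± 0.11 (adjusted p = 0.00223) and -0.59 ± 0.16 (0.0448). IER2 lost the call without any 1 of 8 arrays (all but 75 nM replicates 2 and 3; adjusted p 0.0618 to 0.144), and KLF11 without any 1 of 7 (468 nM replicates 1, 2 and 4, and 75 nM replicates 1, 3, 4 and 5; 0.0509 to 0.159). EGR1, the classic growth factor response gene, differed by 0.28 with an adjusted p of 0.83. Of 27 tested genes of this list, 6 were higher and 2 were lower, beside 1.13% and 1.43% of all tested genes. The list's median was 0.26, and under the shift by reference genes 3 were higher and 2 lower.

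**Figure D4:**
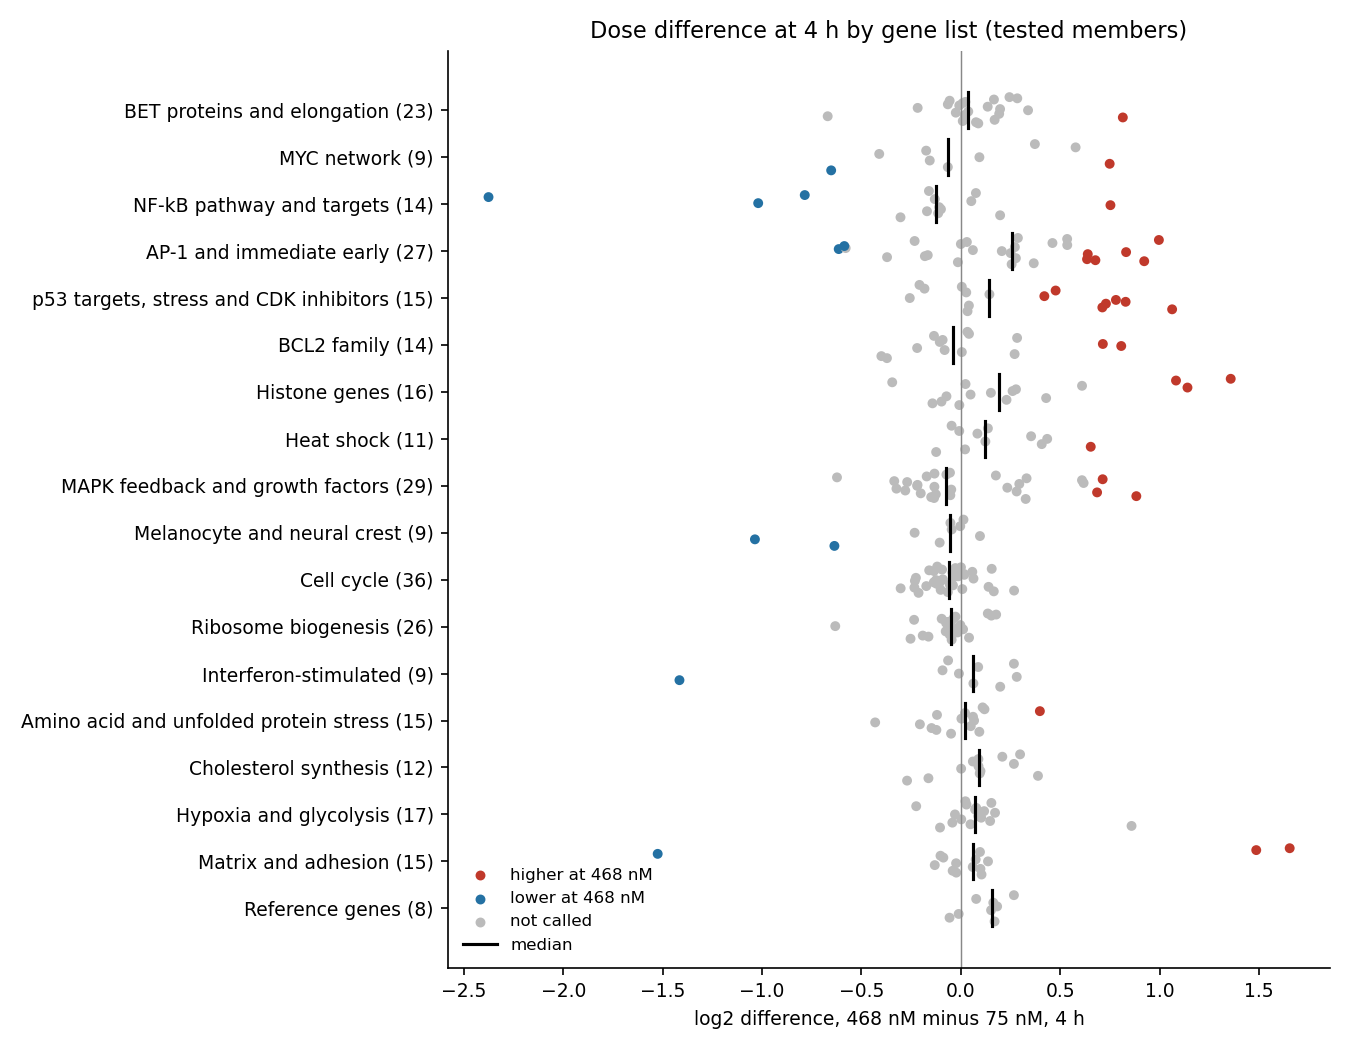
Log2 difference of 468 nM minus 75 nM at 4 h (x axis) for the tested members of 18 gene lists (rows, number of members in brackets); red and blue points were called higher and lower, grey points were not called, and black bars are medians. The stress list has 7 red points and no blue one, and the 36 cell cycle genes stay grey between -0.30 and 0.27.

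Several stress and growth-arrest genes were higher at 468 nM. Of 15 tested genes among p53 targets, stress genes and CDK inhibitors, 7 were higher, 0 were lower and 8 were not called, with a median of 0.14. Beside this, 1.13% of all tested genes were higher and 1.43% lower, and the list was chosen with earlier results of these data known. Under the shift by reference genes 3 were higher, and in the fit of the 10 arrays alone, or without the filter on dim genes, 4 were. GADD45A, which is induced by DNA damage and slows the cell cycle, measured 7.90, 7.92, 8.0, 7.82 and 8.03 at 468 nM and 6.94, 6.76, 6.98, 6.77 and 6.91 at 75 nM. The arrays of each dose lay close together and far from the other dose. The difference was 1.06 ± 0.15, or 2.09-fold, with an adjusted p of 0.00013, and GADD45A was above DMSO by 1.94 at 468 nM and by 0.88 at 75 nM. Its relative GADD45B was higher by 0.71 ± 0.12 (adjusted p = 0.00106).

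The sestrins and DDIT4, which restrain the growth kinase mTORC1, were the other main group of this list. SESN3 measured 7.44, 7.16, 7.54, 7.41 and 7.54 at 468 nM and 6.86, 6.77, 6.53, 6.34 and 6.44 at 75 nM, and SESN2 measured 7.92, 8.21, 7.92, 8.07 and 7.52 at 468 nM and 7.16, 7.31, 7.0, 7.36 and 7.16 at 75 nM. Neither gene's doses overlapped. SESN3 was higher by 0.83 ± 0.15 (adjusted p = 0.00187), SESN2 by 0.73 ± 0.15 (0.0064) and DDIT4 by 0.78 ± 0.18 (0.0125, with overlap), while SESN1 differed by 0.04. CCNG1, a p53-induced cyclin, was higher by 0.42 ± 0.09 (adjusted p = 0.0096) and RRM2B, the p53-induced subunit of ribonucleotide reductase, by 0.48 ± 0.13 (0.0448), both with overlapping doses. CCNG1 lost the call in 5 alternative fits (adjusted p 0.0578 to 0.245), DDIT4 in 3 (0.051 to 0.077) and SESN2 in 1 (0.0607). The RRM2B call ended without any 1 of 8 arrays (all but 468 nM replicate 2 and 75 nM replicate 5; adjusted p 0.0592 to 0.147). The other tested p53 targets of this list gave no call, with MDM2 at -0.26 (adjusted p = 0.43) and BAX at 0.00. Outside this list TIGAR, named after its value was seen, was higher by 0.46 ± 0.13 (adjusted p = 0.049, with overlap), and PMAIP1 is given below. The CDK inhibitor CDKN1B differed by 0.03, and CDKN1A, at 3.77 at 468 nM and 3.44 at 75 nM, was below the filter.

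Of the BCL2 family, which decides between survival and cell death at the mitochondrion, 2 of 14 tested genes were higher and 0 were lower. The shares of all tested genes were 1.13% and 1.43%. Both higher genes were BH3-only killers. BCL2L11, which encodes BIM, measured 5.11, 5.68, 5.48, 5.73 and 4.93 at 468 nM and 4.37, 4.85, 4.73, 4.66 and 4.29 at 75 nM, with no overlap and a difference of 0.81 ± 0.19 (adjusted p = 0.0178). PMAIP1, which encodes NOXA, was higher by 0.71 ± 0.20 (adjusted p = 0.0499), at the edge of the threshold. BCL2L11 passed the filter on dim genes only through arrays given 468 nM, where it was higher, so its test is not support for a change. Without the filter, or under the shift by reference genes, neither BCL2L11 (adjusted p = 0.0684 and 0.0899) nor PMAIP1 (0.164 and 0.162) was called. BCL2L11 lost its call without any 1 of 4 arrays (468 nM replicates 2 and 4, and 75 nM replicates 1 and 5; adjusted p 0.0537 to 0.0631), and PMAIP1 without any 1 of 8 (all but 468 nM replicate 4 and 75 nM replicate 1; 0.0682 to 0.148). The survival genes BCL2, BCL2L1 and MCL1 differed by -0.37, -0.40 and 0.27 and were not called.

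The histone gene H3C13 had the largest difference upward among called genes that did not overlap and averaged at least 6 at 468 nM. It measured 7.92, 7.90, 8.51, 7.91 and 7.37 at 468 nM and 6.56, 6.25, 7.24, 6.50 and 6.26 at 75 nM. The doses did not overlap, and the difference was 1.36 ± 0.28 (adjusted p = 0.00576). H2BC5 was higher by 1.14 ± 0.25 (adjusted p = 0.0103) and H2BC21 by 1.08 ± 0.20 (0.0021). Of the 16 tested genes of the histone list 3 were higher and 0 lower, with a median of 0.19. The shares of all tested genes were 1.13% and 1.43%. H2BC18, outside the list and named after its value was seen, was also called higher, by 1.19 ± 0.30 (adjusted p = 0.0233, with overlap). Its arrays at both doses at 4 h lay below the log2 value of 5 used by the filter, so it passed only through arrays of other groups. At 24 h it was higher at 468 nM by 2.92, and its test at 4 h is not support for a change. The 4 tested linker histones gave no call, at -0.14 to 0.23. Histone genes share near-identical coding sequences, so which copy a probe set reports is uncertain. Of 11 tested heat shock genes BAG3, a co-chaperone of HSP70, was called (with the replicate block, 2 genes were), at 7.10, 7.29, 7.42, 7.26 and 7.34 at 468 nM and 6.66, 6.80, 6.72, 6.54 and 6.42 at 75 nM. The arrays of both doses stood apart by 0.65 ± 0.09 (adjusted p = 0.00011). HSP90AA1 differed by 0.35 with an adjusted p of 0.0537. The share called among all tested genes was 2.56%.

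The MAPK list holds the feedback regulators and ligands of the pathway that drives many melanomas. In it 3 of 29 tested genes were higher and 0 were lower, with a median of -0.07. The shares of all tested genes were 1.13% and 1.43%. DUSP5, a phosphatase that inactivates ERK in the nucleus, was higher by 0.88 ± 0.19 (adjusted p = 0.0096), DUSP10, which acts on JNK and p38, by 0.69 ± 0.17 (0.0222) and HBEGF, a ligand of the EGF receptor, by 0.71 ± 0.17 (0.0196). The ERK feedback genes DUSP6 and SPRY2 differed by -0.05 and -0.32 without a call. At 75 nM these 3 genes lay near DMSO (DUSP5 -0.19, DUSP10 0.05, HBEGF 0.00). Under the shift by reference genes 0 genes of the list were called, with adjusted p-values of 0.0572 for DUSP5, 0.131 for DUSP10 and 0.0912 for HBEGF. Without the filter on dim genes 1 was. DUSP5 also lost the call in the block fit of the 10 arrays alone (0.0819). DUSP10 and HBEGF each lost the call without any 1 of 4 arrays, for DUSP10 468 nM replicates 2 and 3 and 75 nM replicates 3 and 4 (adjusted p 0.0506 to 0.0947), and for HBEGF 468 nM replicates 1 and 5 and 75 nM replicates 2 and 4 (0.0515 to 0.0767).

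Of the neural crest regulators, SOX10 and ZEB2 were lower at 468 nM than at 75 nM. SOX10, which specifies the melanocyte lineage, measured 8.92, 8.83, 8.75, 8.82 and 9.08 at 468 nM, against 9.64, 9.71, 9.40, 9.45 and 9.38 at 75 nM. The doses were separate, by -0.64 ± 0.13 (adjusted p = 0.00392), while 75 nM differed from DMSO by -0.09. ZEB2, a partner regulator of melanocyte differentiation, measured 4.85, 4.74, 5.11, 4.73 and 5.01 at 468 nM and 6.14, 5.95, 5.94, 5.92 and 5.67 at 75 nM, a difference of -1.04 ± 0.16 (adjusted p = 0.00026) with no overlap, and lay within 0.13 of DMSO at 75 nM. Of the 9 tested genes of the list these 2 were lower and 0 were higher, beside 1.43% and 1.13% of all tested genes. PAX3 and OCA2 differed by -0.11 and -0.05. In RNA from whole cultures, fewer cells of a type and less RNA per cell cannot be told apart.

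MIR4534, a microRNA gene inside POLR2F and next to SOX10, was lower by -0.96 ± 0.25 (adjusted p = 0.034). Whether its probe set reads one strand, and so tells it from the transcript of POLR2F, is not given in the sources used here. The mature sequence is given because it is the called microRNA for which RefSeq (GRCh38.p14, chr22:37988829-37988845, plus strand) has one in the table; the seed, bases 2 to 8, is in capitals.
hsa-miR-4534: gGAUGGAGgaggggucu
Its probe set measured 4.67, 4.62, 4.75, 4.37 and 5.06 at 468 nM and 5.79, 5.0, 5.79, 6.77 and 4.92 at 75 nM, so the doses overlapped. The call ended without any 1 of 7 arrays (468 nM replicates 1 to 4, and 75 nM replicates 1, 3 and 4; adjusted p 0.0613 to 0.116). MIR3143, a microRNA gene within the histone cluster, was higher by 0.88 ± 0.23 (adjusted p = 0.0411), and its neighbour H2BC12 differed by 0.02; it too lost the call without any 1 of 7 arrays (468 nM replicates 1 to 4, and 75 nM replicates 1, 2 and 5; 0.0532 to 0.145). Of all tested genes 2.56% were called. Non-coding genes were counted only if they were microRNA, small nucleolar RNA or antisense RNA genes, and how many of these were tested was not counted. In all 7 such genes were called. Among them LPP-AS2 and ARHGAP5-AS1, antisense RNAs, were lower by -1.0 ± 0.24 (adjusted p = 0.0165) and -0.94 ± 0.22 (0.0175), while ARHGAP5 differed by -0.05. LPP-AS2 lost the call without 468 nM replicate 4 or 5 (0.0591 and 0.0695), and ARHGAP5-AS1 without any 1 of 4 arrays (468 nM replicates 2 and 4, and 75 nM replicates 1 and 3; 0.0512 to 0.0695).

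GJD2, which encodes the gap junction protein connexin 36, had the smallest p of the genes named here. It measured 7.15, 7.13, 7.22, 7.30 and 7.20 at 468 nM and 8.41, 8.61, 8.62, 8.96 and 9.04 at 75 nM. The 468 nM arrays were tightly grouped and lay more than 1 log2 unit under every array at 75 nM. The difference was -1.53 ± 0.17, or 2.88-fold lower (adjusted p = 1.7e-05), and GJD2 differed from DMSO by -2.67 at 468 nM and -1.15 at 75 nM.

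The other strongly lower genes were taken as the largest non-overlapping differences among brighter genes. HMX2, a homeobox gene, was lower by -1.21 ± 0.20 (adjusted p = 0.0005), and ALX1, a neural crest and craniofacial homeobox gene, by -0.96 ± 0.14 (0.00016). GLI2, an effector of Hedgehog signalling, measured 6.42, 5.96, 6.10, 6.18 and 5.57 at 468 nM and 7.15, 7.33, 6.87, 6.78 and 6.85 at 75 nM. All arrays at 468 nM lay below those at 75 nM, by -0.95 ± 0.17 (adjusted p = 0.00117), and 75 nM differed from DMSO by 0.02. TFAP4, a MYC-induced transcription factor, was lower by -0.90 ± 0.16 (adjusted p = 0.00168) and ZNF827, a zinc-finger gene, by -1.14 ± 0.16 (0.00011). FIGN, a microtubule-severing ATPase, was lower by -1.21 ± 0.17, and RAB33A, a small GTPase of vesicle traffic, by -1.02 ± 0.20. SH2D7, FRMD7 and DACT2, a regulator of WNT signalling, were lower by -0.96, -0.86 and -0.89. DACT2 lost the call without any 1 of 7 arrays (468 nM replicates 1 to 4, and 75 nM replicates 3, 4 and 5; adjusted p 0.0535 to 0.13). RTP4, an interferon-induced gene, measured 3.42 to 4.36 at 468 nM and 4.72 to 5.55 at 75 nM, with no overlap and a difference of -1.42 ± 0.21 (adjusted p = 0.00015). It was the only one of 9 tested interferon-stimulated genes to be called, beside 2.56% of all tested genes. HMX2 and RTP4 passed the filter on dim genes only through arrays of groups where they were higher, so their tests are not support for a change.

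The strongly higher genes chosen by the same rule had mixed roles. TENT5C, a poly(A) polymerase that stabilises messenger RNA, was higher by 1.17 ± 0.20 (adjusted p = 0.00102). KITLG, the ligand of the melanocyte growth receptor KIT, measured 6.35, 6.10, 6.59, 6.35 and 6.96 at 468 nM and 5.53, 5.24, 5.12, 5.30 and 5.68 at 75 nM. The doses were separate, by 1.09 ± 0.18 (adjusted p = 0.00045), and 75 nM differed from DMSO by 0.19. RGS2, which dampens G protein signals, was higher by 0.98 ± 0.14 (adjusted p = 0.00012), EPHB3, an ephrin receptor, by 0.98 ± 0.19 (0.00307), and ATF7IP2 by 1.03 ± 0.15 (0.00013). A second, dimmer ATF7IP2 probe set gave 5.60 at 468 nM and 5.34 at 75 nM, a difference of 0.26. The zinc-finger gene ZNF878 and KLHL15, an adaptor of a ubiquitin ligase, were higher by 0.98 and 0.97. In the matrix and adhesion list, VASN, a cell-surface protein that binds TGF-beta, was higher by 1.66 ± 0.27 (adjusted p = 0.00064) and PCDH10, a protocadherin, by 1.49 ± 0.27 (0.00202). VASN measured 5.67 to 6.31 at 468 nM and 3.18 to 4.81 at 75 nM, so its lower group lay near the dim end of the arrays. VASN and PCDH10 among the higher genes, and HMX2, RTP4, IL6, IL6-AS1 and STEAP1B-AS1 among the lower ones, passed the filter on dim genes only through the arrays of the groups where they were higher. The tests of these genes are therefore not support for a change.

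Cell cycle genes gave no call between the doses at 4 h, where 2.56% of all tested genes were called. Of 36 tested, 0 were called by limma, 1 was higher and 2 were lower at an unadjusted p under 0.05, the differences ran from -0.30 to 0.27, and the count was 0 under each alternative fit as well. CCND1 differed by -0.21 ± 0.11 (adjusted p = 0.506) and E2F8, a late E2F factor, by -0.29 (0.485). Cholesterol synthesis (12 tested) and hypoxia and glycolysis (17 tested) gave 0 calls by limma, with 0 and 1 genes at an unadjusted p under 0.05, and with the replicate block 1 hypoxia and glycolysis gene was higher. The only call among 15 genes of amino acid and unfolded protein stress was HERPUD1, a part of the machinery that removes misfolded proteins, at 0.40 ± 0.11 (adjusted p = 0.0463). That call ended without any 1 of 8 arrays (all but 468 nM replicate 5 and 75 nM replicate 2; adjusted p 0.0576 to 0.155).

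The arrays at 24 h are other samples, so the dose difference there was measured on separate samples. At 24 h, 2860 genes (30.8%) differed between the doses, 1246 of them higher (13.4%) and 1614 lower (17.4%). Of the genes higher at 4 h, 63 (60.0%) were also called higher at 24 h, which is 5.06% of the genes higher at 24 h. Of the 133 lower at 4 h, 59 (44.4%) were called lower at 24 h, which is 3.66% of the lower ones there. The median difference of the early higher genes was 0.71 at 4 h and 0.45 at 24 h, and that of the early lower genes was -0.64 at 4 h and -0.26 at 24 h.

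The change of the dose difference with time was tested by its interaction, 24 h minus 4 h, which was called for 1083 genes (11.7%), 3.95% of all with a higher and 7.71% with a lower difference at 24 h. Among the genes called at 4 h, the dose difference was smaller or reversed at 24 h for 19 of the higher and 40 of the lower genes, and larger for 3 and 6. These genes were chosen for a large difference at 4 h, which the interaction subtracts, so a smaller difference at 24 h follows in part from the choice and the counts are a description. HEXIM1, MYC, TNFAIP3, CSF1, IL6 and GADD45A kept their direction with no call of the interaction: at 24 h HEXIM1 differed by 0.97, MYC by -0.53, TNFAIP3 by -0.76, CSF1 by -0.71, IL6 by -2.41 and GADD45A by 1.40. SOX10 and ZEB2 were not called at 24 h, at 0.30 and -0.03, and the interaction was called for both (0.94, adjusted p = 0.00087, and 1.0, adjusted p = 0.0036). BAG3, at -0.12, and SESN2, at -0.23, did the same on the higher side, with interactions of -0.77 (adjusted p = 0.00026) and -0.96 (0.0039). SESN3 went the other way, to 1.53 at 24 h, with an interaction of 0.70 (adjusted p = 0.032).

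**Figure D5:**
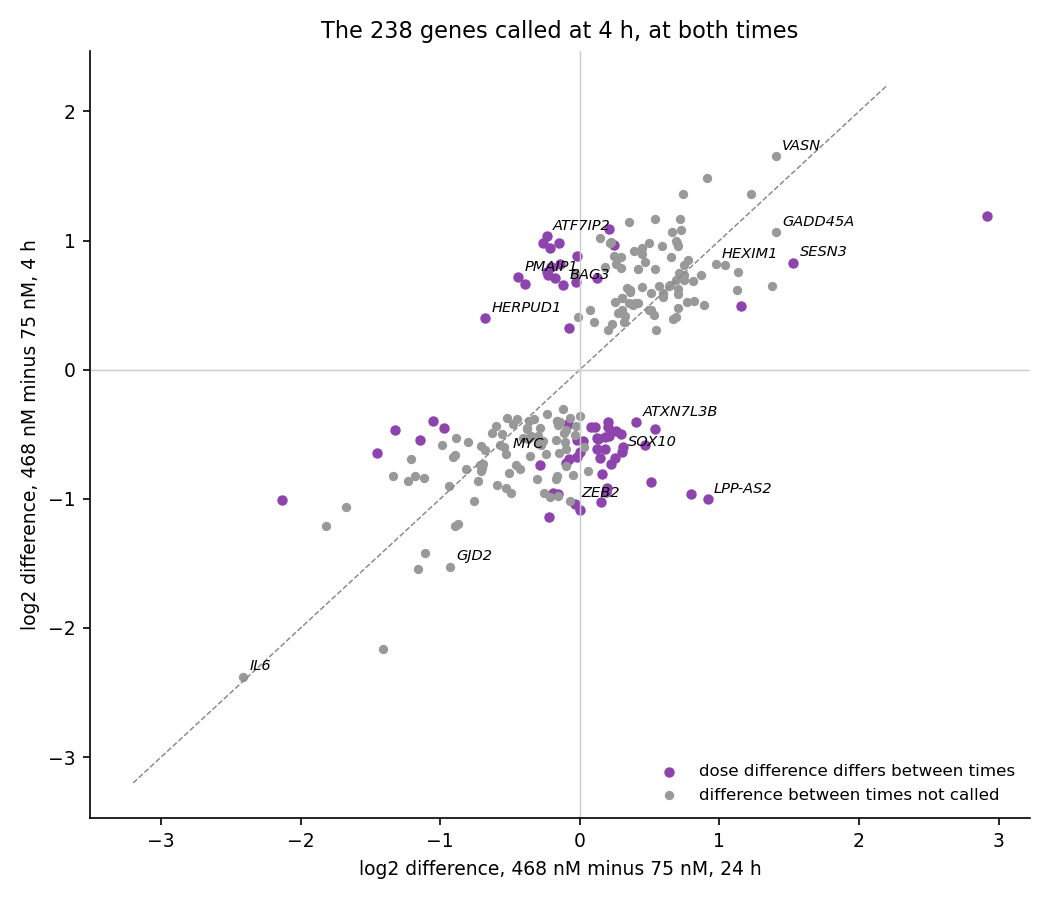
The 238 genes called at 4 h, with the log2 difference of 468 nM minus 75 nM at 24 h (x axis) and at 4 h (y axis); the dashed line marks equal differences, and purple points had a called interaction. Most points lie on the same side of 0 at both times, and HERPUD1, ATXN7L3B and LPP-AS2 lie on opposite sides.

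A few genes changed sides. HERPUD1 was higher by 0.40 at 4 h and lower by -0.68 at 24 h, and it was the only early higher gene called lower later. The early lower genes ATXN7L3B, DCAF16, ZKSCAN8, RANBP6, TBC1D2B, MIR4534 and LPP-AS2 were called higher at 24 h; ATXN7L3B, a paralog of a chromatin deubiquitinase subunit, measured -0.41 at 4 h and 0.40 at 24 h, and LPP-AS2 -1.0 at 4 h and 0.92 at 24 h. All 8 had a called interaction, which nearly follows from their being chosen for opposite calls at 4 h and 24 h. At 4 h DCAF16 lost the call without any 1 of 7 arrays (all but 468 nM replicates 2 and 4, and 75 nM replicate 3; adjusted p 0.0558 to 0.131), and RANBP6 (0.0513) and TBC1D2B (0.0544) without 468 nM replicate 5.

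Some lists with at most 1 call at 4 h had more at 24 h than the 30.8% of all genes. Of the 36 cell cycle genes 33 were lower at 24 h, with a median of -1.07 beside -0.06 at 4 h, and the interaction was called lower for 30, against 7.71% of all genes. Of the 26 ribosome biogenesis genes 20 were lower at 24 h (median -0.50), with 11 called interactions, all lower. Of the 15 amino acid and unfolded protein stress genes 11 were lower at 24 h, and 5 had a called interaction, again lower. The single genes with the largest changes of this kind, chosen for them and so given as a description, included E2F8, at -0.29 at 4 h and -2.56 at 24 h, CLEC2B at 0.00 and -3.18, FAM216B at 0.06 and -3.02, CLMP at -0.02 and -2.23, ELOVL2, a fatty acid elongase, at 0.18 and -1.81, and on the higher side TXNIP at 0.58 and 2.10, ARRDC4 at 0.37 and 1.82, EPHA7 at 0.05 and 1.08 and CHMP1B at -0.01 and 1.01. FOSL1, the AP-1 member that differed by -0.01 at 4 h, was lower by -1.28 at 24 h, with an interaction of -1.27 (adjusted p = 0.00018).

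Set beside DMSO at 4 h, the doses differed in how many genes passed: 1013 (10.9%) at 468 nM, with 3.96% of all tested genes higher and 6.95% lower, and 63 (0.679%) at 75 nM, with 0.334% higher and 0.345% lower. Both counts share the DMSO arrays with each other and an arm with the dose difference, so they are given side by side only. TNFAIP3 differed from DMSO by -2.07 at 468 nM and -1.05 at 75 nM, and CSF1 by -1.66 at 468 nM and -0.87 at 75 nM. BCL2L11 differed from it by 1.12 at 468 nM and 0.31 at 75 nM, and KLF6 by -0.95 at 468 nM and -0.34 at 75 nM. GLI2, SOX10, ZEB2, HBEGF and DDIT4 were each within 0.13 of DMSO at 75 nM, and differed from it at 468 nM by -0.93, -0.73, -1.17, 0.71 and 0.73.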

How the data were processed

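RNA from CHL-1 cells was hybridised to Affymetrix whole-transcript arrays. The authors deposited an intensity value per probe set, summarised with RMA per the submitters' processing notes; no version or genome build was given in the sources used here. RMA equalises the arrays, so a shift of most transcripts would not be seen. The intensities of 53617 probe sets were turned into log2 values. Names came from the platform annotation and RefSeq (GRCh38.p14): 23871 probe sets had 1 symbol, 1842 several (unused) and 27904 were not listed. For each of 22357 genes the brightest probe set was used, and 9285 genes with a log2 value above 5 on at least 4 arrays were tested with limma 3.58.1 (R 4.3.3), with 6 group means, residual df of 22 and Benjamini-Hochberg adjustment, after a check on simulated data. Depth is not defined for arrays; their number limits the precision.

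The labels do not state separate cultures, so a p-value covers the spread between these samples and that spread could be technical. Title codes repeat in steps of 26 across groups. Deviations of arrays with the same step correlated at 0.248, 0.259, 0.103, 0.338 and 0.345, each the best match, so codes were taken to pair arrays, and a fit with this block is an alternative.

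Members, lists and rules were chosen with earlier results of these data known. Named genes were the 12 largest non-overlapping called differences each way with a mean of at least 6 in the higher group, fixed genes, up to 6 called members of each list, genes level between doses but called against DMSO at both, genes with the largest interactions, and called non-coding genes. H2BC18, TIGAR, IER2, KLF11, RRM2B and most genes that changed sides at 24 h were named outside this rule, after their values were seen. Alternatives changed the filter, scaling, offset, probe set rule, variance model, block and arrays used.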

Additional observations from a re-analysis of the deposited data

Results flagged for a closer look

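The dose difference itself changed between 4 h and 24 h for 38 of 83 named genes, by the limma interaction (24 h minus 4 h, adjusted p under 0.05). The share over all tested genes was 11.7%. Some of the named genes were chosen for their interaction and others for a large difference at 4 h, which the interaction subtracts. The count of 38 is therefore a description. Among genes higher at 468 nM at 4 h, the change was -1.27 for ATF7IP2, -1.14 for ZNF878, -0.88 for KITLG, -0.72 for KLHL15, -0.77 for BAG3, -0.90 for DUSP5, -0.89 for HBEGF, -0.59 for GADD45B, -0.70 for JUNB, -0.98 for NFKBIE, -1.16 for PMAIP1, -0.96 for SESN2 and -1.08 for HERPUD1. SESN3 was the one named gene higher at 4 h with a change upward, of 0.70. Among genes lower at 4 h, the change was 0.80 for ALX1, 1.13 for ARHGAP5-AS1, 0.81 for ATXN7L3B, 0.74 for KLF6, 1.92 for LPP-AS2, 1.76 for MIR4534, 1.18 for RAB33A, 0.77 for SH2D7, 0.94 for SOX10, 1.0 for ZEB2 and 0.91 for ZNF827, and -1.12 for STEAP1B-AS1, which was further apart at 24 h. Among genes not called at 4 h, it was -3.18 for CLEC2B, -3.08 for FAM216B, -2.27 for E2F8, -2.20 for CLMP, -1.99 for ELOVL2, -1.27 for FOSL1 and -0.89 for KLF5, and 1.52 for TXNIP, 1.44 for ARRDC4, 1.03 for EPHA7, 1.02 for CHMP1B and 0.54 for ZKSCAN1.

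In 6 of the 166 groups of arrays examined, 1 array stood apart by Dixon's 95% limit, where chance gives about 1 in 20. At 468 nM these were CCND1 at 8.92 and CHMP1B at 8.23, each above the other 4 arrays, and TENT5C at 7.14, below them. At 75 nM they were CCNG1 at 8.13, above the others, and FRMD7 at 6.70 and HEXIM1 at 7.72, below them.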

How the results depend on the processing

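The alternatives were run for 82 called genes named here, without H2BC18 and TIGAR. Of these, 47 kept the call in every alternative run, 35 lost it in at least 1 and 0 changed direction. Leaving out 1 array ended the call for 26 of the 35. Without the filter on dim genes, 123 genes were called in place of 238 (64 higher and 59 lower), and the interaction was called for 633 in place of 1083, with 22357 genes in the adjustment. The shift by reference genes left 37 higher genes, with 81.3% of its calls lower in place of 55.9%. Leaving out 1 array gave 168 to 203 calls. The replicate block gave 286 calls. Among the genes run through the alternatives, it changed the call of TXNIP alone (adjusted p = 0.0176). The fit of the 10 arrays alone gave 180 calls, 154 of them among the 238, and 17 of the 82 named calls were lost. A block fit with the 10 arrays alone, chosen after seeing the data, gave 224.

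Genes near 0 changed sign without a call. Under the shift by reference genes the difference was -0.0302 for BRD2, -0.0417 for BRD3, -0.0971 for CCNT2, -0.108 for CDK9, -0.116 for CLEC2B, -0.0678 for EPHA7, -0.0598 for FAM216B, -0.110 for KLF5, -0.0775 for SESN1, -0.0992 for SYVN1, -0.0943 for TRMT61B and -0.0617 for ZKSCAN1. The mean of all probe sets gave -0.139 for BRD2. Array weights gave 0.0112 for CHMP1B, -0.0308 for KLF5 and -0.000466 for CLEC2B, for which an offset of 16 gave -0.000269. Without 1 array the difference ran from -0.0306 to 0.0621 for CCNT2, -0.0322 to 0.0489 for CDK9, -0.0941 to 0.0242 for CHMP1B, -0.111 to 0.115 for CLEC2B, -0.0908 to 0.0428 for CLMP, -0.0261 to 0.165 for EPHA7, -0.0943 to 0.247 for FAM216B, -0.110 to 0.0354 for FOSL1, -0.0954 to 0.0933 for KLF5, -0.0371 to 0.168 for SESN1, -0.0240 to 0.0508 for SYVN1 and -0.0133 to 0.0561 for TRMT61B. The cause of these changes was not tested.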

Other observations

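Further called genes outside the lists were chosen after their values were seen, so they are single genes and stand for no group. HMX3, the neighbour of HMX2 on its chromosome, averaged 4.41 ± 0.27 at 468 nM and 5.25 ± 0.23 at 75 nM (SD, n = 5 each), a difference of -0.84 ± 0.18 (limma adjusted p = 0.00683). DLX1 was lower by -0.73 ± 0.14 (0.00292), ZIC1 by -0.74 ± 0.18 (0.0233) and ONECUT1 by -0.99 ± 0.21 (0.00653). PTCH1, the Hedgehog receptor and a target of GLI proteins, was lower by -0.58 ± 0.15 (0.0327), and by -0.57 at 24 h. ZMYND8, which reads acetylated histones, was lower by -0.77 ± 0.12 (0.00044), SETDB1, a histone methyltransferase, by -0.53 ± 0.09 (0.00151) and CHD7, a chromatin remodeller, by -0.53 ± 0.13 (0.0178). Leaving out 1 array ended the call of ZIC1 for 6 of 10 arrays (468 nM replicates 1, 3 and 5, and 75 nM replicates 1, 2 and 4), of PTCH1 for 6 (468 nM replicates 1, 3 and 5, and 75 nM replicates 3, 4 and 5) and of CHD7 for 3 (468 nM replicates 2 and 5, and 75 nM replicate 1), at adjusted p-values of 0.0517 to 0.0918, 0.0579 to 0.114 and 0.0533 to 0.0606. HMX3 passed the filter on dim genes only through arrays where it was higher, so its test is not support for a change.

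TOB1, an antiproliferative regulator of mRNA decay, averaged 8.37 ± 0.06 at 468 nM and 7.41 ± 0.12 at 75 nM, a difference of 0.96 ± 0.12 (adjusted p = 2.4e-05). BAIAP2, an actin regulator, was higher by 0.90 ± 0.11 (2.4e-05), ERRFI1, an inhibitor of the EGF receptor, by 0.78 ± 0.12 (0.0002), MKNK2, which phosphorylates eIF4E, by 0.78 ± 0.12 (0.00042) and PIM2, a survival kinase, by 0.96 ± 0.18 (0.00308). SOCS1, which restrains cytokine signals, was higher by 1.07 ± 0.23 (0.00722). LFNG, a modifier of Notch receptors, and JAG1, a Notch ligand, were higher by 1.17 ± 0.21 (0.00189) and 0.73 ± 0.20 (0.0446). The JAG1 call ended without any 1 of 8 arrays (all but 468 nM replicate 4 and 75 nM replicate 5, at 0.0531 to 0.137). SOCS1 and LFNG passed the filter only through arrays given 468 nM, so their tests are not support for a change.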
